A study of Mus musculus with 6 samples.

Results

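Natural killer (NK) type receptors were examined in T cells from the spleens of WT mice and mice without DUSP4 (DUSP4-/-). The list held 10 genes, 9 killer cell lectin-like receptors (Klrk1, Klrc1, Klrc2, Klrd1, Klrg1, Klrb1c, Klre1, Klra1 and Klra7) and Ncr1. A gene was measured where a probe set, the group of probes for a transcript, named it and no other gene, and the brightest such probe set by the mean over all arrays stood for it. By this rule 8 of the 10 genes were measured, among 22180 genes on the array. Klra1 and Klra7, which encode the inhibitory receptors Ly49A and Ly49G, shared a probe set that names 7 genes and have no value of their own. The WT samples came from B6 mice and the DUSP4-/- samples from mice with a germline deletion of Dusp4, back-crossed to C57Bl/6, so every cell of the mutant animals lacks the gene. There were 3 samples of each genotype, from animals of 6 to 8 weeks. T cells, described by the study as naïve, were taken from fresh splenocytes by magnetic-assisted cell sorting (MACS), untreated and uncultured, and the RNA of each sample was read on its own Affymetrix Mouse Gene 2.0 ST array. Whether each sample came from 1 mouse is not given, so p-values measure the spread between these samples.

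NK cells and some T cells decide whether to attack a target by weighing signals from activating and inhibitory surface receptors. Most of these receptors are C-type lectin-like proteins encoded side by side in the natural killer gene complex. Activating members carry no signaling motif and call on adaptors such as DAP10 (Hcst), DAP12 (Tyrobp) or the Fc receptor gamma chain (Fcer1g), whereas inhibitory members recruit phosphatases such as SHP-1 (Ptpn6). On T cells they mark memory and effector CD8 cells, NKT cells and other innate-like subsets, and naïve T cells have little of them.

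The array medians lay between 4.99 and 5.07 on the log2 scale. Cd3e, which serves T cell receptor signaling, lay at 11.49 to 11.78, Cd4 at 10.82 to 11.10 and Cd8a at 10.32 to 10.79. Dusp4 read 6.33, 7.61 and 8.13 in WT replicates 1, 2 and 3 and 5.10, 6.18 and 6.78 in DUSP4-/- replicates 1, 2 and 3, lower in each mutant sample than in the WT sample of the same number (mean difference -1.34, adjusted p = 1.00 from limma, and 0.182 with the number as a block). Its probe position relative to the deletion is not known. Xist, which marks female cells, read 10.09 and 10.12 in both replicate 1 arrays and 3.58 to 3.87 in the other 4, so the number of a sample goes with apparent sex. Samples of the same number were taken as pairs, as the study describes 3 independent pairs. In the text below each pair difference is DUSP4-/- minus WT on the log2 scale.

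The transcripts of Klrk1, Klrc2 and Klrc1 read lower in the DUSP4-/- sample of every pair, but none of the 8 receptors passed an adjusted p of 0.05. Klrk1 and Klrc2, both activating, averaged 0.669 and 0.607 of the WT level. Klrc1, which is inhibitory, averaged 0.816. The partner chain Klrd1 and the inhibitory receptor Klrg1 averaged 1.02 and 0.966 of WT. Klrb1c averaged 1.46, through a single array. Klrc2 and Klrb1c read below the median probe set, and the files do not show whether values that dim lie above background. Over all genes 0 of 22180 (0%) passed an adjusted p of 0.05 from limma, whether or not sample pairs were blocked. At an unadjusted p under 0.05, 0 of 8 receptors passed without the block, where 2.7% of all genes did. With the block, Klrk1, Klrc2 and Klrc1 passed at an unadjusted p under 0.05, 3 of 8 receptors and all lower, where 6.19% of all genes passed and 2.49% were lower by that rule.

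**Figure D1:**
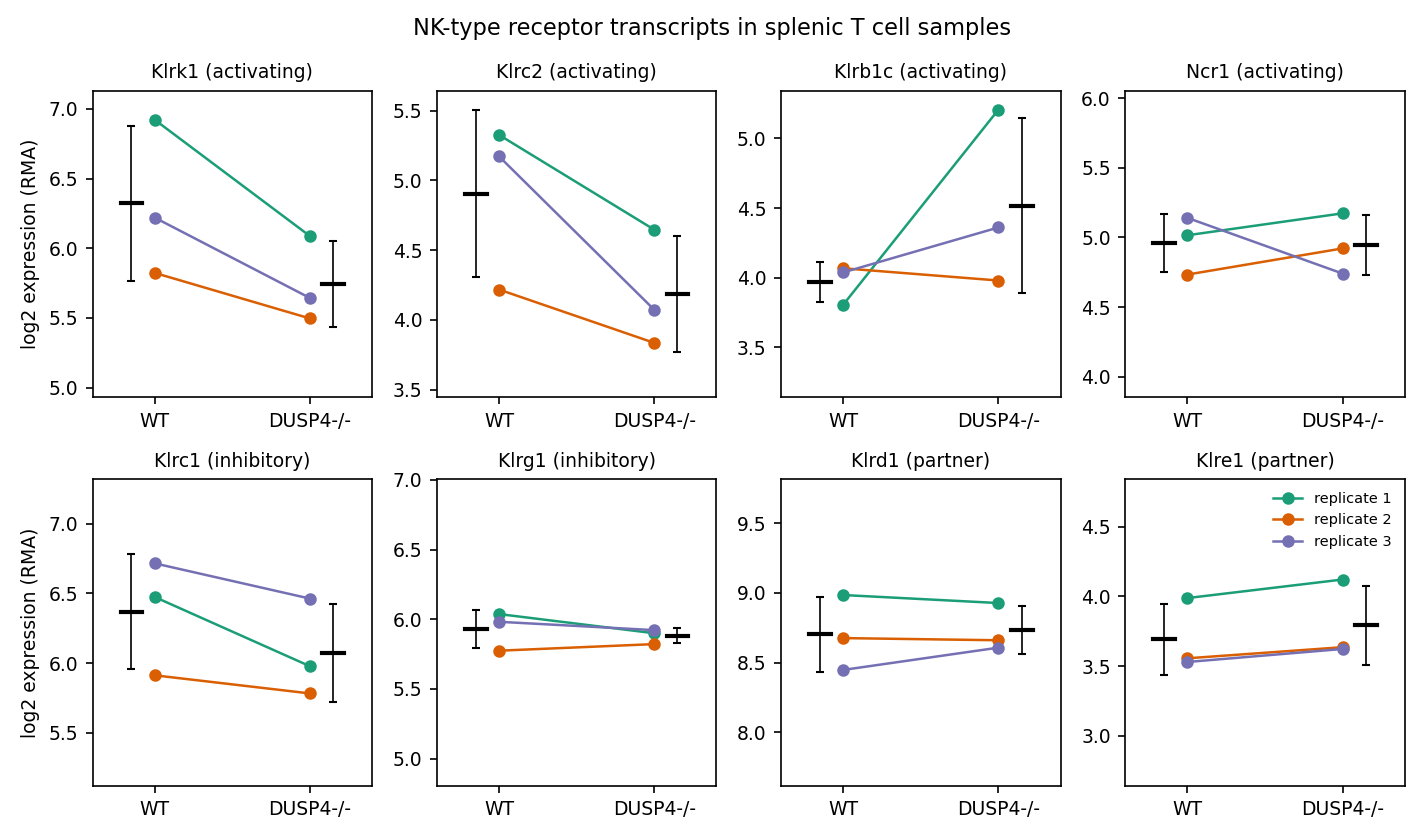
Log2 expression (vertical axis, each panel spanning the same number of log2 units) of the 8 measured receptor genes in WT and DUSP4-/- samples, with samples of the same replicate number joined by a line. Black bars are group means and whiskers SD (n = 3). The lines of Klrk1, Klrc2 and Klrc1 descend in all 3 pairs, and that of Klrb1c climbs steeply in pair 1 only.

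Klrk1 encodes NKG2D, the activating receptor for stress-induced ligands of the Raet1, H60 and Ulbp families, which on T cells mainly marks activated and memory CD8 cells. It read 6.92, 5.82 and 6.22 in WT replicates 1, 2 and 3 and 6.09, 5.50 and 5.64 in DUSP4-/- replicates 1, 2 and 3. The genotypes overlapped, since DUSP4-/- replicate 1 lay above WT replicate 2. The differences in the pairs were -0.83, -0.33 and -0.58. The mean difference was -0.58 (standard error 0.28, adjusted p = 1.00 from limma), or 0.669-fold (95% confidence interval 0.428 to 1.05), and the exact two-sided permutation test over the 6 arrays gave p = 0.2, where 0.1 is the smallest p that 3 samples against 3 allow. With the block the interval was 0.539 to 0.831 and the adjusted p from limma 0.762. Leaving out WT replicate 1 alone, the highest array, left a difference of -0.28, with DUSP4-/- replicate 1 lacking its partner. Leaving out the whole of pair 1, with the block, left -0.45.

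Klrc2 encodes NKG2C, the activating chain that pairs with CD94 and binds the class I-like molecule Qa-1. It read 5.33, 4.22 and 5.17 in WT replicates 1, 2 and 3 and 4.65, 3.83 and 4.07 in DUSP4-/- replicates 1, 2 and 3. WT replicate 2 lay below DUSP4-/- replicate 1, so the groups overlapped here too. The differences in the pairs were -0.68, -0.38 and -1.10, with a mean of -0.72 (standard error 0.32, adjusted p = 1.00 from limma; exact permutation p = 0.2). The fold of 0.607 had a confidence interval of 0.367 to 1.00, and of 0.465 to 0.791 with the block (adjusted p = 0.762). Klrc2 was dim, at the 37.1th percentile of tested probe sets, and its sequence is close to that of Klrc1 and Klrc3, so its probes may also bind their transcripts.

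Klrc1 encodes NKG2A, the inhibitory partner of CD94 for the same ligand. It read 6.47, 5.91 and 6.72 in WT replicates 1, 2 and 3 and 5.98, 5.78 and 6.46 in DUSP4-/- replicates 1, 2 and 3. Replicate 3 was the highest sample of both genotypes and replicate 2 the lowest. The differences in the pairs were -0.50, -0.13 and -0.25, with a mean of -0.29 (standard error 0.25, adjusted p = 1.00 from limma; exact permutation p = 0.4). The confidence interval of the fold was 0.552 to 1.21, and 0.674 to 0.988 with the block. Without WT replicate 3 alone the difference was -0.12, and without WT replicate 2 alone it was -0.52. Leaving out the whole of pair 1, 2 or 3, with the block, gave -0.19, -0.37 and -0.31.

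A gene lower in all 3 pairs was no rarity, since 11.1% of all genes were, against 3 of the 8 receptors. Differences of at least 0.3 in every pair were seen for Klrk1 and Klrc2 and for 0.374% of all genes, and differences of at least 0.5 for none of the receptors and for 0.0766% of all genes. These bounds were set after the values were seen. No receptor had genotypes that did not overlap, where 7.44% of all genes did. The spread among samples of 1 genotype was wide for these receptors, with a median SD of 0.33 over the 8 genes and of 0.19 over all genes.

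Klrk1, Klrc3, Klrc2, Klrc1 and Klri1 follow one another as protein-coding genes on chromosome 6 in GRCm38.p6. All 5 had a mean below WT, where 44.1% of all genes did. The transcripts of Klrc3, which encodes a further NKG2 chain, and Klri1, an inhibitory chain that pairs with Klre1, were not on the list. Klri1 differed by -0.58, -0.30 and -0.22 in the pairs, and read below the median probe set, at the 45.4th percentile of tested probe sets. Klrc3 was among the dimmest genes, at the 2.75th percentile of tested probe sets, 3.25 in WT replicate 1 and 1.41 to 2.02 in the other 5, and its pair differences of -1.76, -0.46 and 0.44 had no common sign. On the other side of Klrk1, its neighbours Klrd1 and Klre1 had means of 0.029 and 0.10 above WT. This stretch was singled out after the values were seen. Whether its probe sets also bind the transcripts of neighbouring genes was not tested.

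**Figure D2:**
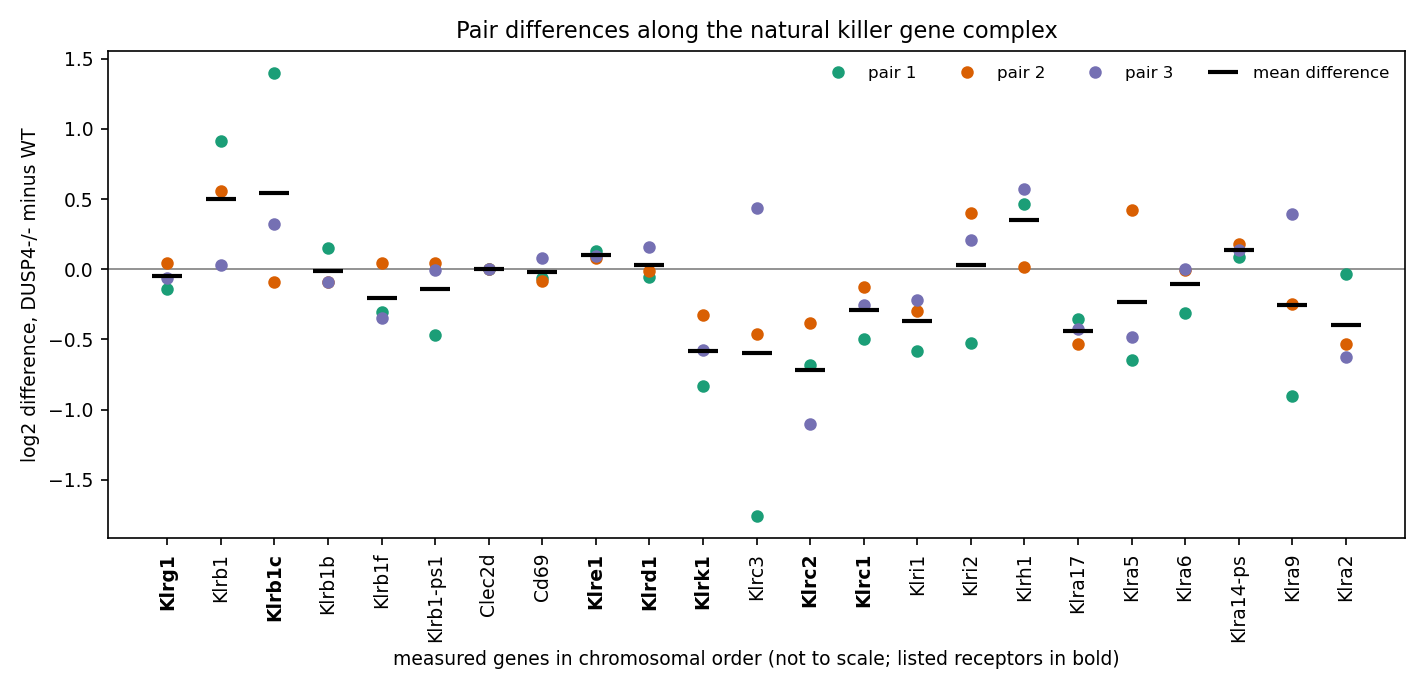
Log2 differences, DUSP4-/- minus WT, in each pair (coloured points) and their mean (black bars) for the measured genes of chromosome 6, set in chromosomal order at equal spacing with the listed receptors in bold. Klrk1, Klrc2, Klrc1 and Klri1 have all 3 points below 0, as do Klra17, Klra6 and Klra2 further along, while Klre1 and Klrd1 beside them sit near 0.

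The promoters of the 3 receptors that read lower in every pair are shown because all of them hold the core of a RUNX site. RUNX proteins, among them Runx3, are transcription factors of CD8 T cells and NK cells. The 250 bases before a RefSeq transcription start (GRCm38.p6) run 5′ to 3′ on the strand of the gene, with each TGTGGT, on either strand, in capitals.
Klrk1, chr6:129623865-129624114, minus strand: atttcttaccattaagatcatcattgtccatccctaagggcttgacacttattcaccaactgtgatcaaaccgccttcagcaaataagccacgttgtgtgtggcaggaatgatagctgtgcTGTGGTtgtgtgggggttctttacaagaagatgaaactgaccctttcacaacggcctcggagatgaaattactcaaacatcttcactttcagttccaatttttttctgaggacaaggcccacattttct
Klrc2, chr6:129660597-129660846, minus strand: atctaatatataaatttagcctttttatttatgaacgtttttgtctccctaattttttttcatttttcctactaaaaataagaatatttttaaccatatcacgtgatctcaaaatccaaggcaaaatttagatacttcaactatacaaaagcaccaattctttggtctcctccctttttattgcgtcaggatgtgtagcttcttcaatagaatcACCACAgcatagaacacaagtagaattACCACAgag
Klrc1, chr6:129678974-129679223, minus strand: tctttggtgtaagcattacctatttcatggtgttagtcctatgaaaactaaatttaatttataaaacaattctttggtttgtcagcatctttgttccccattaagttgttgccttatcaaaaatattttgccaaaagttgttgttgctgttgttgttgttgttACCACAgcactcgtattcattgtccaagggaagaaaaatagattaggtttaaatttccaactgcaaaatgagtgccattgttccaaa
The letters lie 129 bases before the start of Klrk1, 36 and 9 bases before the start of Klrc2 shown, and 87 bases before that of Klrc1. Each was counted at the first base of the match. Before the other RefSeq start of Klrc2 they lie at 76 and 49 bases. Promoters were on hand for 8 of the 10 listed genes, and in 7 of these at least 1 start had TGTGGT within 250 bases, Klrb1c, Ncr1, Klre1 and Klra1 among them. Of 32851 promoter windows of that length, 14% held it. That share is per window, whereas some of the 8 genes had more than 1, so the counts are not of like units. Of the other motifs searched on both strands, the T-box core TCACACC (3.33% of windows) and the AP-1 motif TGANTCA (6.75%) were in none of the 8 genes, and the STAT motif TTCNNNGAA (7.02%) was in Klra7 alone. The motifs were chosen with the sequences in view. Receptors that read lower and those that did not both held TGTGGT. The transcript of Runx3 itself differed by -0.16, 0.0035 and -0.10 in the pairs.

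Klrb1c encodes NK1.1, the activating receptor by which NK and NKT cells of B6 mice are recognized. It read 3.81, 4.07 and 4.04 in WT replicates 1, 2 and 3 and 5.21, 3.98 and 4.36 in DUSP4-/- replicates 1, 2 and 3. Only DUSP4-/- replicate 1 stood out, and the other 5 arrays lay within 3.81 to 4.36. The pair differences of 1.40, -0.088 and 0.32 averaged 0.54 (standard error 0.28, adjusted p = 1.00 from limma; exact permutation p = 0.3). Without DUSP4-/- replicate 1 the difference was 0.20. A dimmer probe set that names Klrb1a and Klrb1c together had pair differences of -0.71, 0.44 and -0.21, the opposite sign in each pair. Klrb1, the neighbour of Klrb1c on the chromosome, was above WT in every pair, by 0.92, 0.56 and 0.031. Klrb1 also read below the median probe set, at the 41.7th percentile of tested probe sets. Its genotypes did not overlap, at 4.31 to 4.74 in WT and 4.77 to 5.26 in DUSP4-/- samples (unadjusted p = 0.0232, adjusted p = 1.00 from limma), where 5.02% of all genes were higher without overlap.

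Ncr1 encodes NKp46, an activating receptor of the immunoglobulin type that is close to restricted to NK cells and other innate lymphocytes and lies outside the complex, on chromosome 7. It read 5.02, 4.73 and 5.14 in WT replicates 1, 2 and 3 and 5.17, 4.92 and 4.74 in DUSP4-/- replicates 1, 2 and 3. These values surround the median probe set of 5.03. The pair differences of 0.16, 0.19 and -0.40 averaged -0.018, with a confidence interval of the fold from 0.759 to 1.28 (adjusted p = 1.00 from limma).

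Klrg1 encodes an inhibitory receptor for cadherins that marks late effector CD8 T cells and mature NK cells. It was the steadiest of the 8, at 6.04, 5.77 and 5.98 in WT replicates 1, 2 and 3 and 5.90, 5.82 and 5.92 in DUSP4-/- replicates 1, 2 and 3. The pair differences were -0.14, 0.047 and -0.060. The fold of 0.966 had a confidence interval of 0.789 to 1.18, and of 0.819 to 1.14 with the block.

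Klrd1 encodes CD94, without which NKG2A and NKG2C do not reach the cell surface. It was the one receptor in the upper range of the array, at the 92.7th percentile of tested probe sets, and read 8.98, 8.68 and 8.45 in WT replicates 1, 2 and 3 and 8.93, 8.66 and 8.61 in DUSP4-/- replicates 1, 2 and 3. Both genotypes had their highest value in replicate 1 and their lowest in replicate 3. The pair differences were -0.057, -0.016 and 0.16, and the fold of 1.02 had a confidence interval of 0.777 to 1.34, narrowing to 0.861 to 1.21 with the block. Klre1 encodes a receptor chain that pairs with Klri1 or Klri2. It was dim, at the 19.2th percentile, and read 3.99, 3.56 and 3.53 in WT replicates 1, 2 and 3 and 4.12, 3.64 and 3.62 in DUSP4-/- replicates 1, 2 and 3. Its pair differences of 0.13, 0.080 and 0.093 were all above 0, as for 16.6% of all genes, and smaller than the spread within each genotype.

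**Figure D3:**
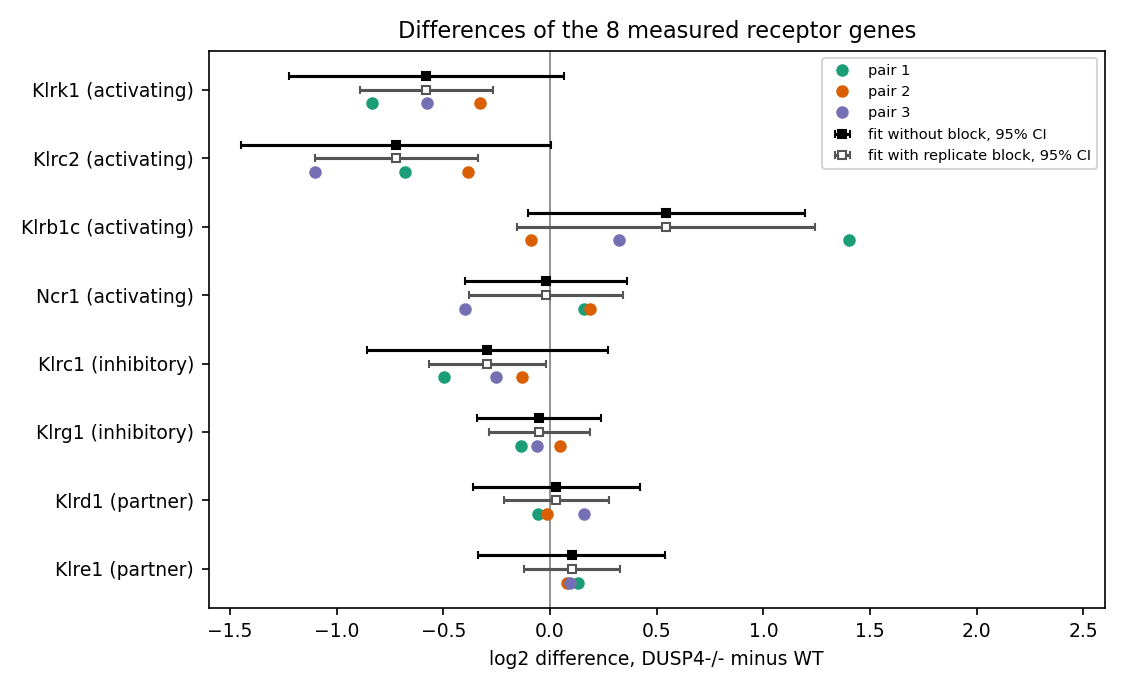
Log2 difference, DUSP4-/- minus WT, for each of the 8 measured receptors. Black squares and bars are limma estimates with 95% confidence intervals, open squares those with pairs as a block, and coloured points the 3 pairs. Without the block every interval reaches 0, and with it those of Klrk1, Klrc2 and Klrc1 lie below 0.

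Set against each other by role, the 4 activating receptors had a median difference of -0.30, with 3 below WT, Ncr1 only at -0.018. The inhibitory Klrc1 and Klrg1 had a median of -0.17, with both below WT, Klrg1 only at -0.050. Of the activating receptors, Klrc2, Klrb1c and Ncr1 read below the median probe set, whereas both inhibitory receptors read above it. The median over all genes was 0.019, and 44.1% of genes had a mean below WT. In pairs 1, 2 and 3 the medians were -0.26, -0.21 and -0.49 for the activating and -0.32, -0.041 and -0.16 for the inhibitory receptors, so the order of the roles turned in pair 1. Activating receptors spanned -0.72 to 0.54, wider than the gap between the roles. Over all 8 receptors the median was -0.034. The probe set shared by Klra1, Klra7 and 5 other Ly49 genes differed by -0.20, -0.47 and -0.37, but read 2.18 to 2.89, at the 9.09th percentile of all probe sets.

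Among the adaptors and kinases of these receptors, 8 of 11 were below WT, where 44.1% of all genes were. The list had a median of -0.13, and none of its genes passed an adjusted p of 0.05. Hcst, the adaptor DAP10 of NKG2D, read 7.37, 7.22 and 6.97 in WT replicates 1, 2 and 3 and 7.24, 6.83 and 6.70 in DUSP4-/- replicates 1, 2 and 3. It was lower in each pair, by -0.13, -0.39 and -0.27 (adjusted p = 1.00 from limma, and 0.770 with the block). Fcer1g, which signals for NK1.1 and NKp46 and is abundant in myeloid cells, lay at 7.45 to 7.86 in WT and 7.24 to 7.36 in DUSP4-/- samples. Its genotypes did not overlap, where 2.43% of all genes were lower without overlap. Any gene without overlap has an exact permutation p of 0.1. The adjusted p of Fcer1g was 0.776 from limma with the block. Tyrobp, or DAP12, had pair differences of -0.024, 0.11 and -0.77, so its mean of -0.23 came from pair 3. Syk, the kinase that DAP12 recruits, had differences of 0.17, -0.24 and -0.53.

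The 3 phosphatases of inhibitory receptors all had means below WT, Ptpn11 at -0.15, Inpp5d at -0.082 and Ptpn6 at -0.019. Of 10 ligand genes measured, with a median of -0.090, 6 were below WT. Of all genes 44.1% were. The largest differences were those of Clec2g (-0.40), a Clr molecule, and H60b (-0.29), a ligand of NKG2D, which came from pair 1 (-1.10) alone. H2-T23, the gene of Qa-1, differed by -0.20, -0.14 and 0.019. Clec2d, the ligand of an inhibitory NKR-P1 receptor, ranged over the samples from 8.69 to 10.30, yet its pair differences were -0.0013, -0.0012 and 0.0043.

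Of the 16 other measured genes of the complex, 11 had means below WT, where 44.1% of all genes did. The 16 include the pseudogenes Klra14-ps and Klrb1-ps1 and the ligand Clec2d. In all 3 pairs 4 were lower and 3, Klra14-ps among them, higher, where 11.1% and 16.6% of all genes were. None of the 16 passed an adjusted p of 0.05. Klra17 differed by -0.36, -0.53 and -0.43 and Klra2 by -0.032, -0.53 and -0.62. Both were dim, and only 3 of the 16 lay above the median probe set. NK-type receptors encoded elsewhere lay close to WT, with 8 of 10 below and a median of -0.033, from Slamf7 at -0.21 to Tigit at 0.16. Crtam (-0.13) and Il2rb (-0.066), a chain of the IL-2 and IL-15 receptors, lay between these. Transcription factors of cytotoxic and innate-like lymphocytes had a median of -0.027, with Ikzf2 at 0.27, Zbtb16 at -0.17, Gata3 at 0.15 and Irf8 at -0.13.

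**Figure D4:**
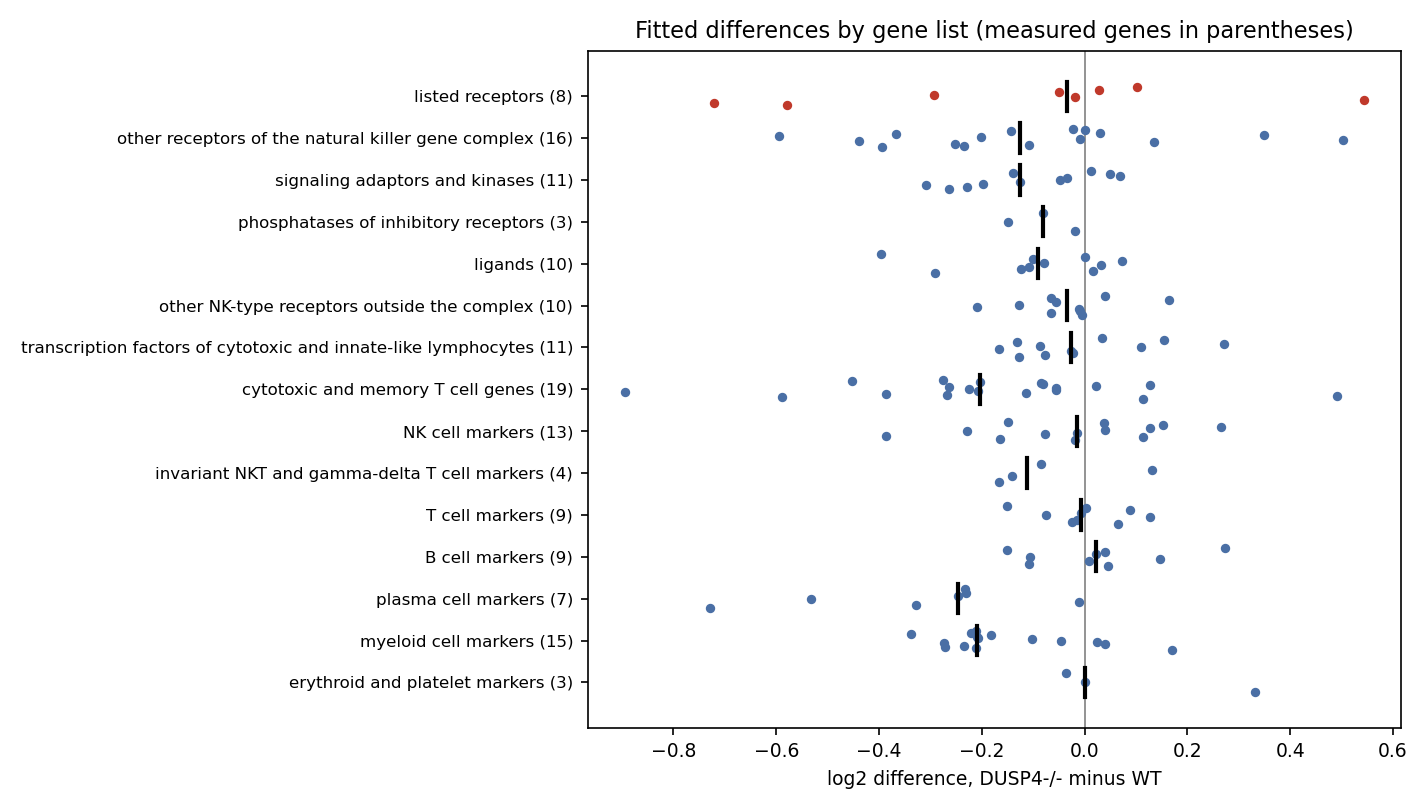
Fitted log2 differences, DUSP4-/- minus WT, for the measured genes of each list (points, listed receptors in red), with the median as a black bar and the number of genes in parentheses. Every list except those of B cells and of erythroid cells and platelets has more points below 0 than above it. The medians of the plasma cell, myeloid and cytotoxic lists lie furthest below 0.

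Because NK cells carry these receptors too, their markers were read beside them. In bulk samples fewer cells of a type and less RNA per cell cannot be told apart. Of 13 measured NK cell markers, 7 had means below WT, where 44.1% of all genes did. The median of the markers was -0.014, and 0.12, 0.054 and -0.23 in pairs 1, 2 and 3. Ncr1, Prf1, Gzma, S1pr5, Eomes, Tyrobp and Itgam on this list also belong to other lists here, and T cells or myeloid cells express most of these. The mean log2 level over the list was 5.49 to 5.66 in WT and 5.41 to 5.77 in DUSP4-/- samples. The dimmest of these markers, Cma1, read 2.33 to 2.91. Itga2, the CD49b chain by which NK cells are often depleted, read 5.23 to 5.47 in WT samples, near the median probe set, and differed by 0.12, -0.21 and -0.41. When it sorted CD4 T cells, the study depleted cells bearing B220, CD11b, CD49b, Ter119 or CD8, which mark B cells, myeloid cells, NK cells, erythroid cells and CD8 T cells. For the naïve T cells of the arrays, the study refers to the same methods. The purity it states for that sort leaves a small share of other cells. By the study's own account, part of the sorted CD4 cells were not naïve, and some were regulatory T cells. The level of Cd8a shows CD8 transcripts in these samples, although those methods remove CD8 cells. Which parts of that depletion were applied here, that of CD49b cells among them, is therefore not known.

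Other cells were measured in the same way, beside the 44.1% of all genes with a mean below WT. T cell markers had a median of -0.0075, with Lat at -0.15 and Cd4 at 0.13 as the widest, and B cell markers one of 0.021, from Blnk at -0.15 to Ebf1 at 0.27. Plasma cell markers had 7 of 7 means below WT, Jchain by -0.73 and Derl3 by -0.53, and a mean level over the list of 6.75 to 7.10 in WT and 6.52 to 6.85 in DUSP4-/- samples. Myeloid markers had 12 of 15 below WT, among them Siglech (-0.34) and S100a8 (-0.27), with list levels of 5.61 to 5.86 and 5.53 to 5.63. Only 4 of 10 markers of NKT and gamma-delta T cells could be read, with a median of -0.11, and 3 of 8 of erythroid cells and platelets, with a median of 0.00098, Pf4 at 0.33, Itga2b at -0.036 and Ppbp at 0.00098. What part any of these cells had in the receptor values was not tested.

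Genes of cytotoxic and memory T cells, on which NKG2D and CD94 also appear, had 15 of 19 means below WT, with a median of -0.20, and 9 were lower in all 3 pairs, where 44.1% and 11.1% of all genes were. Prf1, the pore-forming perforin, differed by -0.45, -0.39 and -0.31, and Ccl3 by -0.29, -0.91 and -1.48. Gzmb, at 0.29, -0.80 and -1.26, was above WT in pair 1. Il12rb2 had a mean of -0.45 and Gzmk one of 0.49. None passed an adjusted p of 0.05.

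The genes whose values over the 6 arrays ran most like Klrk1, among 11424 genes brighter than the median probe set, were Ttc39b (Pearson r = 0.99), Tmem181c-ps, Rasgrp3, Parp4 and Samd10 (each r = 0.98). For Klrd1 they were Rffl, Asxl2, Bod1l, Zfp790 and Apc, each at r = 1.00 after rounding. For Klrg1 they were Tmem203, Tmem176a, Pigs, Smpd5 and Gpx4, at r of 0.97 to 0.99. Among the receptors, Klrk1 ran closest to Klrc2 (r = 0.93) and Klrd1 to Klre1 (r = 0.91), whereas Klrd1 and Klrc1, whose proteins form a receptor together, had an r of -0.28. With 6 arrays in pairs of like samples and 11424 genes to choose from, such values are a description of these arrays, without a test.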

How the data were processed

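Log2 expression values were deposited by the authors, who made them with RMA in Affymetrix Expression Console (versions not given in the sources used here). RMA corrects background, gives all arrays a common distribution by quantile normalization and reduces the probes of a set to 1 value, so shifts of the whole transcriptome cannot be seen. The genome build of the authors' annotation is not given in the sources used here. Of 41345 probe sets, 23521 name 1 gene and were all fitted and adjusted together, 1820 name several, 16004 are unnamed here. Counts are over the brightest fitted probe set of each of 22180 genes. Gene names came from the platform annotation; 23328 fitted probe sets matched GRCm38.p6 by Entrez identifier. Promoters came from RefSeq.

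Genotype differences were estimated by limma 3.58.1 (lmFit, eBayes; R 4.3.3) without a block, and p adjusted by Benjamini-Hochberg over all 23521 fitted probe sets (threshold 0.05). Exact two-sided permutation tests were run for single genes. Deviations from genotype means correlated over genes at 0.308 to 0.578 for same-numbered samples and -0.436 to 0.103 for others. Such deviations cancel out within a genotype, so the negative values follow in part from the positive ones. Replicate 1 also differs in apparent sex, so these values alone do not establish pairs. Fits with the replicate number as a block are given. The procedure was tested on simulated data.

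The members and lists were chosen with earlier results of these data known. Named genes were the listed receptors, Dusp4, Xist, defining markers, up to 4 genes per list with the largest differences, and the 5 genes most like Klrk1, Klrd1 and Klrg1; others named in the text were chosen after their values were seen. Alternatives were leaving out each sample or pair, dim probe sets, an intensity trend with robust settings, array weights, the mean over probe sets, array medians set to 0, a second quantile normalization, one-way ANOVA and a threshold of 0.1. The number of arrays, 3 per genotype, limits precision.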

Additional observations from a re-analysis of the deposited data

How the results depend on the processing

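No listed receptor passed the adjusted threshold under any of 18 alternatives, and over all genes the count was 0 under 17 of them and 1 without WT replicate 1 (Gdpd3), a range of 0 to 1 over the fits that leave out a sample. With pairs as a block the count was 0 of receptors and 0 over all genes. One-way ANOVA gave 0 by adjusted p, and at an unadjusted p under 0.05 it passed 788 genes and 0 receptors, where limma passed 599 and 1373 without and with the block. The directions of Klrk1 (-0.83 to -0.28), Klrc2 (-1.07 to -0.51), Klrc1 (-0.52 to -0.12) and Klrb1c (0.12 to 0.86) held under every alternative that measured them. The sign turned for receptors close to 0. Ncr1 was at 0.0079 to 0.084 without WT replicate 1, WT replicate 3 or DUSP4-/- replicate 3, and ranged from -0.13 to 0.084 over the samples left out. It was 0.17 without pair 3 and 0.075 with array weights. Klrg1 was 0.0046 with array weights and ranged from -0.13 to 0.0030 over the samples left out, and Klre1 from -0.062 to 0.25. Klrd1 was -0.037 without pair 3 and ranged from -0.099 to 0.17 over the samples left out. The median of the activating receptors ranged from -0.48 to -0.14 over the samples left out, at the ends WT replicate 2 and WT replicate 1, and was -0.58 without dim probe sets, which left Klrk1 alone. That of the inhibitory receptors ranged from -0.32 (without WT replicate 2) to -0.072. Leaving out dim probe sets gave no value for Klrc2, Klrb1c, Ncr1 and Klre1. The files hold no detection call, so whether such dim values lie above background is not known.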
